A study of Condylura cristata and Mus musculus with 12 samples.

Results

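The trigeminal ganglia (TG) of the star-nosed mole, Condylura cristata, were compared with its dorsal root ganglia (DRG) by RNA sequencing. TG hold the cell bodies of the sensory neurons of the face, among them those that innervate the touch organs of the star, and DRG hold those of the trunk and limbs. All 3 TG and 3 DRG libraries of the mole entered the comparison, out of 12 samples in the series, and of 33773 genes with counts the 18908 with at least 10 counts in at least 3 of these 6 libraries were tested, with n = 3 libraries in each ganglion. The animals of both groups were adult males labelled as wild and caught in the field, and no treatment is named for them. Each library came from a single animal, except that 1 DRG sample pooled 2 animals; which one was not stated. Nothing states that a TG and a DRG library with the same number came from the same mole. The 6 libraries are named TG 1, TG 2, TG 3, DRG 1, DRG 2 and DRG 3.

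Somatosensory ganglia are mixtures of neuron classes and glia. Nociceptors are small neurons, mostly with unmyelinated axons, that detect noxious heat, cold, chemicals and force. A peptidergic group releases substance P and calcitonin gene-related peptide, a nonpeptidergic group binds the lectin IB4 in rodents, and a further group carries itch. Light touch and muscle sense are carried by larger neurons with fast, myelinated axons that are rich in neurofilaments. Satellite glia wrap the cell bodies and Schwann cells wrap the axons. These are bulk tissue libraries, so fewer cells of a type and less RNA per cell cannot be told apart in any of the results here.

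The libraries held 8409670 to 92323879 counts, and DRG 3 was the largest. TG 1 and DRG 1 were made with the Genomic kit and read at 76 bases, and the other 4 with the TruSeq kit. TG 1 and DRG 2 stood apart from the rest of their ganglia. On the first principal component of log2 CPM (counts scaled to the library total), which held 61.0% of the variance, they lay at −16.2 and −1.36, between TG 2 and TG 3 at −129 and −120.1 and DRG 1 and DRG 3 at 125 and 142. The genes that define sensory ganglia were present in all 6 libraries: the pan-neuronal Tubb3 at 1802 to 4645 CPM, the sensory neuron factors Pou4f1 at 73.3 to 218 CPM and Isl1 at 43.8 to 97.2 CPM, the peripheral neurofilament Prph at 1113 to 1874 CPM and the satellite cell gene Fabp7 at 74.5 to 224 CPM. Base composition moved with the comparison: across the 14099 tested genes with a mouse transcript of known GC content, the median log2 fold change of TG over DRG went from −1.03 in the 20% of genes with the lowest GC to 0.91 in the 20% with the highest. Whether the ganglia or the making of the libraries set this trend was not tested. A fit with offsets for each library's GC trend, chosen after seeing the data, is therefore given beside the gene lists.

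With all 6 libraries, 1775 genes were higher in TG (9.39% of those tested) and 2342 were higher in DRG (12.4%), by edgeR's quasi-likelihood test at a Benjamini-Hochberg adjusted p under 0.05. These calls depended on which libraries were present. With 1 library left out, there were 2330 genes higher in TG and 3574 higher in DRG without TG 1, 202 and 206 without TG 2, 357 and 438 without TG 3, 233 and 451 without DRG 1, 3334 and 3441 without DRG 2, and 283 and 465 without DRG 3. Without both TG 1 and DRG 2, the libraries that stood apart, there were 6026 and 5598. The lists' counts in that fit are to be read against these numbers, out of 18908 genes. In all, 357 of the 4117 calls passed in each of the 6 fits that left out 1 library, 155 of them higher in TG and 202 higher in DRG. Of the 320 among these with a GC value, 297 also passed with the GC offsets in the same direction. With those offsets 977 of the 14099 genes were higher in TG (6.93%) and 1549 higher in DRG (11%). Of the named genes that passed with and without the offsets, 117 in all, 62 had fold changes that differed by more than 1.5 times between these fits, 56 of them closer to 0 with the offsets, and 9 named genes passed with the offsets but not without them. The median log2 fold change over all genes tested was 0.13, and the fold changes of all lists are to be read against it. With GC offsets that median was −0.001 over the 14099 genes with a GC value. The lists' medians are given without offsets unless stated. With offsets some of them moved toward 0, moved away from it or changed sign.

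**Figure D1:**
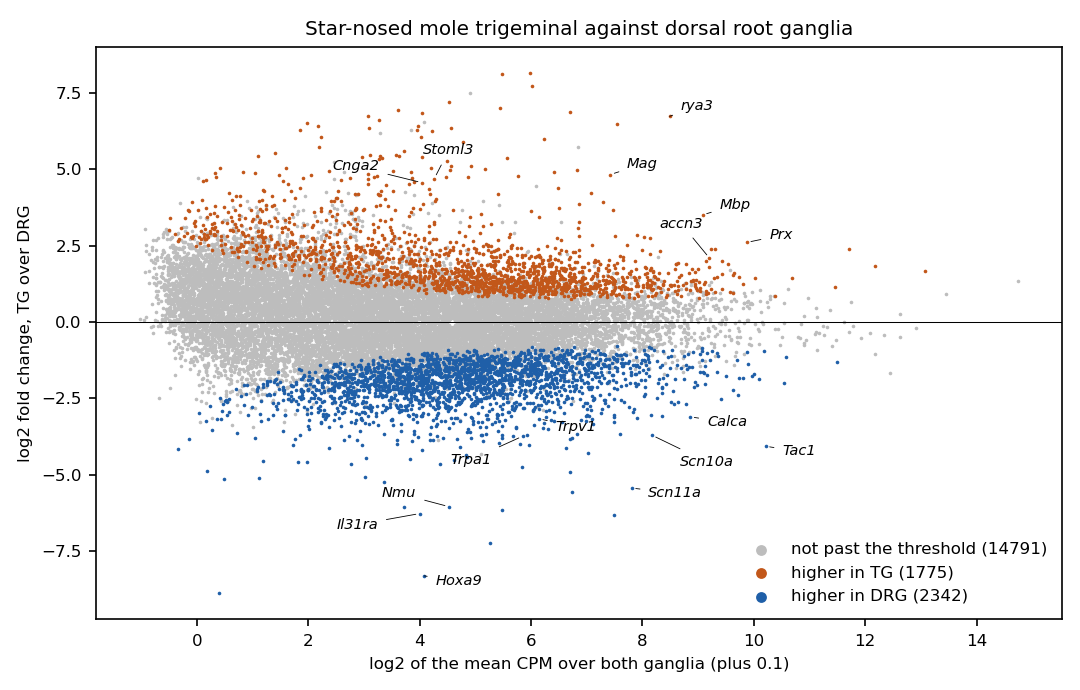
Log2 fold change of TG over DRG (y axis) against the log2 of the mean CPM over both ganglia plus 0.1 (x axis) for each of the 18908 genes tested, with genes past the threshold in orange (1775 higher in TG) and blue (2342 higher in DRG). Nociceptor genes such as Trpv1, Trpa1, Scn10a and Scn11a lie among the genes higher in DRG, and the myelin genes Mag, Mbp and Prx among those higher in TG.

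The libraries of the 2 kits allowed a check on separate samples. In the TruSeq libraries alone, 914 genes were higher in TG (4.83%) and 1914 higher in DRG (10.1%), and these calls were followed in TG 1 and DRG 1, which that fit did not use. The ratio of TG 1 over DRG 1 had the same sign for 870 of the 914 genes higher in TG (95.2%) and for 1598 of the 1914 higher in DRG (83.5%). Among all genes tested the signs matched for 13820 (73.1%). The median log2 ratio in replicate 1 was 1.51 for the former and −1.14 for the latter, beside 1.77 and −2.29 in the TruSeq libraries. The GC trend was present in both, with a Spearman correlation across genes between fold change and GC content of 0.60 in the TruSeq libraries and 0.32 in replicate 1; genes are not independent replicates.

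**Figure D2:**
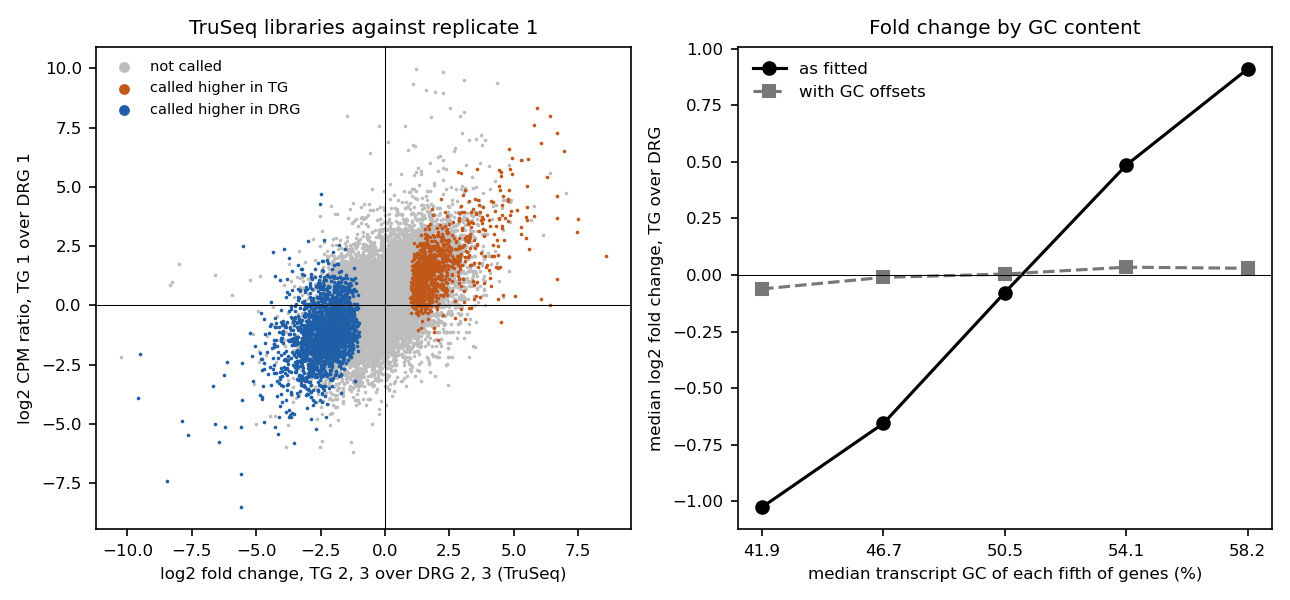
Left, log2 CPM ratio of TG 1 over DRG 1 (y axis) against the log2 fold change in the TruSeq libraries (x axis) for the 18908 genes, with TruSeq calls coloured; 95.2% of the genes called higher in TG and 83.5% of those called higher in DRG had the same sign in replicate 1. Right, median log2 fold change of TG over DRG (y axis) in 5 groups of equal size of the 14099 genes with a GC value (x axis, median GC of the group in percent), which went from −1.03 to 0.91 as fitted and from −0.06 to 0.03 with GC offsets.

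Most of the peptidergic nociceptor genes tested were higher in DRG. Of 13 members 7 were higher in DRG (53.8%, beside 12.4% of all genes tested) and 6 did not pass. The median of their log2 fold changes was −2.61, and 8 had every DRG library above every TG library (21.9% of all genes did). Trpv1, the receptor for capsaicin and noxious heat, stood at 9.30, 15.2 and 17.7 CPM in TG 1, 2 and 3 and 137, 126 and 117 CPM in DRG 1, 2 and 3 (log2 fold change −3.17 ± 0.32 (SE), adjusted p = 0.00747). Tac1, which encodes substance P, stood at 204, 99.7 and 95.7 CPM in TG 1, 2 and 3 and 1347, 3093 and 2269 CPM in DRG 1, 2 and 3 (log2 fold change −4.07 ± 0.47 (SE), adjusted p = 0.00771). Calca, which encodes calcitonin gene-related peptide, stood at 131, 72.3 and 86.0 CPM in TG 1, 2 and 3 and 741, 729.5 and 1023 CPM in DRG 1, 2 and 3 (log2 fold change −3.11 ± 0.33 (SE), adjusted p = 0.00771). For all of these the lowest DRG library was more than 5 times the highest TG library. Kit, the receptor for stem cell factor, stood at 6.74, 4.28 and 5.21 CPM in TG 1, 2 and 3 and 52.9, 55.3 and 95.2 CPM in DRG 1, 2 and 3 (log2 fold change −3.65 ± 0.38 (SE), adjusted p = 0.00755), likewise with no overlap. These 4 genes passed in each of the 6 fits that left out 1 library. Adcyap1, the neuropeptide PACAP, was also higher in DRG (log2 fold change −2.64 ± 0.53 (SE), adjusted p = 0.0166), but the call was lost without TG 2, TG 3, DRG 1 or DRG 3 (adjusted p up to 0.0642). Prokr2 and Calcb, a receptor for prokineticins and the second calcitonin gene-related peptide, stood under 25 CPM and lost their calls without TG 2, TG 3 or DRG 1, and Prokr2 also without DRG 3; Calcb can share reads with Calca. The list's 7 calls became 4 without TG 2, 4 without TG 3 and 4 without DRG 1. Without both TG 1 and DRG 2 they became 8, and 3 other members passed as higher in TG. In that fit 5598 and 6026 of all 18908 genes did. As higher in TG, 2 members passed without DRG 2 alone and 1 without TG 1 alone, with DESeq2 and with limma-voom. With GC offsets 8 of 13 passed as higher in DRG, and Trpv1 stood at a log2 fold change of −3.45, adjusted p = 0.00149.

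Of 15 tested genes of the nonpeptidergic list 5 were higher in DRG (33.3%, beside 12.4% of all genes) and 10 did not pass, with a median of −1.02. Scn11a, the persistent sodium channel Nav1.9 of nociceptors, stood at 12.1, 7.92 and 10.2 CPM in TG 1, 2 and 3 and 429.5, 248 and 635 CPM in DRG 1, 2 and 3 (log2 fold change −5.44 ± 0.45 (SE), adjusted p = 0.00466), and its lowest DRG library was more than 20 times its highest TG library. Grik1, a kainate receptor of small sensory neurons, stood at 9.57, 3.55 and 3.76 CPM in TG 1, 2 and 3 and 49.2, 37.6 and 33.9 CPM in DRG 1, 2 and 3 (log2 fold change −2.85 ± 0.47 (SE), adjusted p = 0.0114). P2rx3, the ATP receptor of these neurons, did not pass; DRG 2 lay within the range of TG, at 4.45, 9.38 and 11.8 CPM in TG 1, 2 and 3 and 39.9, 9.84 and 24.5 CPM in DRG 1, 2 and 3 (log2 fold change −1.53 ± 0.58 (SE), adjusted p = 0.0918). Gfra1 and Gfra2, receptors for ligands of the GDNF family, had log2 fold changes of −1.48 (adjusted p = 0.0615) and −1.02 (adjusted p = 0.0478), with edgeR. Calls were lost for Grik1 without TG 2 or DRG 1 (adjusted p up to 0.0537), and for Gfra2 without TG 1, TG 2, TG 3, DRG 1 or DRG 3 (adjusted p up to 0.151). The list's 5 calls became 1 without TG 2, 2 without TG 3, 1 without DRG 1 and 2 without DRG 3, and with GC offsets 4 of 15 passed as higher in DRG.

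Of 9 tested itch genes 6 were higher in DRG (66.7%, beside 12.4% of all genes) and 3 did not pass, and the median log2 fold change was −2.12. Trpa1, the channel opened by mustard oil and other irritants, stood at 8.36, 7.65 and 8.03 CPM in TG 1, 2 and 3 and 101, 72.7 and 147 CPM in DRG 1, 2 and 3 (log2 fold change −3.74 ± 0.35 (SE), adjusted p = 0.00587). Il31ra and Osmr form the receptor for the itch cytokine interleukin 31. Il31ra stood at 0.539, 0.0910 and 0.598 CPM in TG 1, 2 and 3 and 33.1, 15.9 and 45.5 CPM in DRG 1, 2 and 3 (log2 fold change −6.27 ± 0.72 (SE), adjusted p = 0.00771). Osmr stood at 1.48, 3.55 and 1.02 CPM in TG 1, 2 and 3 and 53.8, 15.7 and 71.4 CPM in DRG 1, 2 and 3 (log2 fold change −4.53 ± 0.73 (SE), adjusted p = 0.0106). Jak1, the kinase that signals for this receptor, stood at 154, 106 and 117 CPM in TG 1, 2 and 3 and 477, 517 and 499 CPM in DRG 1, 2 and 3 (log2 fold change −1.98 ± 0.25 (SE), adjusted p = 0.00778). None of these 4 genes overlapped between the ganglia, and all 4 passed in each fit that left out 1 library. Hrh1, the histamine receptor, and S1pr1, a receptor for a lipid, stood at log2 fold changes of −2.12 and −1.39, and lost their calls: Hrh1 without TG 2, TG 3, DRG 1 or DRG 3 (adjusted p up to 0.141), and S1pr1 without TG 1, TG 2, TG 3, DRG 1 or DRG 3 (adjusted p up to 0.17) as well as with GC offsets (−0.996, adjusted p = 0.0897). Sst, the peptide of an itch neuron group, did not pass and lay the other way, at 57.5, 36.3 and 60.5 CPM in TG 1, 2 and 3 and 12.7, 46.9 and 15.1 CPM in DRG 1, 2 and 3 (log2 fold change 1.05 ± 0.53 (SE), adjusted p = 0.18). Nppb, Nts and 4 receptors of the list had too few counts to test. With 1 library left out the list held 4 to 7 calls in DRG, and with GC offsets 5 of 9 passed as higher in DRG. Without both TG 1 and DRG 2 it held 7 in DRG and 1 in TG, beside 5598 and 6026 of all 18908 genes.

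Not all neuron genes moved in this direction. Of 19 genes found in most sensory neurons 7 were higher in DRG (36.8%, beside 12.4% of all genes) and 12 did not pass, with a median of −0.59. Snap25, a protein of synaptic vesicle release, stood at 402, 483 and 539 CPM in TG 1, 2 and 3 and 1992, 1168 and 1995 CPM in DRG 1, 2 and 3 (log2 fold change −1.86 ± 0.30 (SE), adjusted p = 0.0107). Gap43, a growth protein of axons, stood at 186, 98.2 and 101 CPM in TG 1, 2 and 3 and 554, 780.2 and 532 CPM in DRG 1, 2 and 3 (log2 fold change −2.27 ± 0.35 (SE), adjusted p = 0.00959). Both lost the call without TG 2, with adjusted p = 0.0582 and 0.052. Prph, Sncg and Stmn2, abundant proteins of peripheral neurons, overlapped between the ganglia, with log2 fold changes of −0.04 (adjusted p = 0.939), −0.12 (adjusted p = 0.819) and −0.41 (adjusted p = 0.504) by edgeR. Tubb3, the neuronal tubulin, stood at 3609.5, 4645 and 4352 CPM in TG and 2807, 3304 and 1802 CPM in DRG (log2 fold change 0.67 ± 0.29 (SE), adjusted p = 0.135). The 7 calls became 0 without TG 2, 3 without TG 3, 2 without DRG 1 and 2 without DRG 3, and with GC offsets 6 of 19 passed as higher in DRG, while Snap25 no longer passed (−0.66, adjusted p = 0.204) and Prph did (−1.09, adjusted p = 0.0193).

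**Figure D3:**
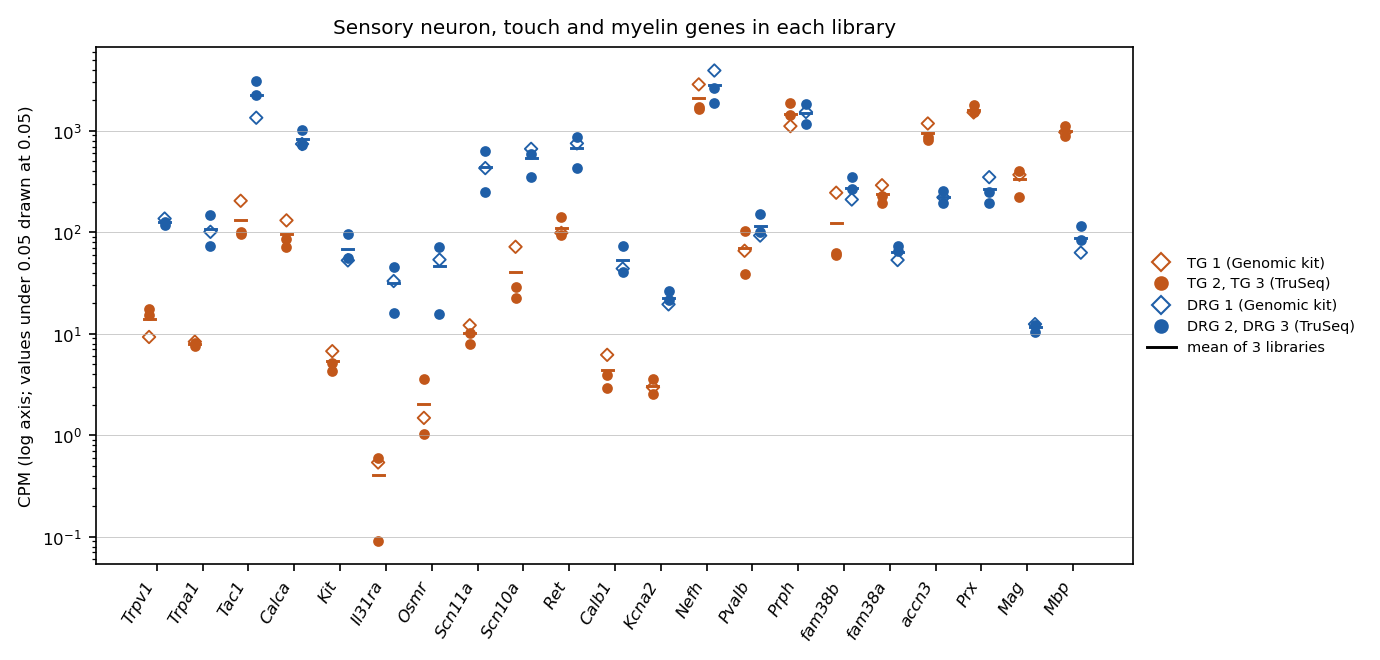
CPM (y axis, log scale) of 21 genes in each library, with open diamonds for replicate 1 (Genomic kit), filled circles for replicates 2 and 3 (TruSeq) and bars for the mean of 3 libraries. The nociceptor and itch genes on the left are higher in all 3 DRG libraries, Nefh, Pvalb, Prph and fam38b overlap between the ganglia, and fam38a, accn3 and the myelin genes on the right are higher in all 3 TG libraries.

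Of 27 tested genes of light touch neurons, 4 were higher in TG (14.8%, beside 9.39% of all genes), 6 higher in DRG (22.2%, beside 12.4%) and 17 did not pass, with a median of −0.44. The neurofilaments, which mark large myelinated neurons, did not pass. Nefh, the heavy chain, stood at 2869, 1656 and 1728 CPM in TG 1, 2 and 3 and 3931, 1898 and 2636 CPM in DRG 1, 2 and 3 (log2 fold change −0.44 ± 0.36 (SE), adjusted p = 0.398). Nefm stood at log2 fold change 0.93 (adjusted p = 0.226) and Nefl at 0.27 (adjusted p = 0.462), and all 3 chains overlapped between the ganglia. Ret, a receptor of early rapidly adapting touch neurons and of nonpeptidergic nociceptors, stood at 98.7, 93.0 and 142 CPM in TG 1, 2 and 3 and 752, 433 and 863 CPM in DRG 1, 2 and 3 (log2 fold change −2.62 ± 0.35 (SE), adjusted p = 0.00821). Calb1, a calcium buffer of touch neuron subsets, stood at 6.20, 2.91 and 3.93 CPM in TG 1, 2 and 3 and 43.9, 41.0 and 73.9 CPM in DRG 1, 2 and 3 (log2 fold change −3.62 ± 0.43 (SE), adjusted p = 0.00771). Kcna2, a potassium channel of myelinated axons, stood at 2.96, 2.55 and 3.59 CPM in TG 1, 2 and 3 and 19.5, 21.4 and 26.2 CPM in DRG 1, 2 and 3 (log2 fold change −2.88 ± 0.36 (SE), adjusted p = 0.00778). These 3 did not overlap, and passed in each fit that left out 1 library. Maf and Slc17a7 were higher in TG. Maf, a transcription factor of rapidly adapting mechanoreceptors, stood at 302, 235 and 235 CPM in TG 1, 2 and 3 and 87.8, 101 and 101 CPM in DRG 1, 2 and 3 (log2 fold change 1.41 ± 0.24 (SE), adjusted p = 0.0119). Slc17a7, the vesicular glutamate transporter of large neurons, stood at 453, 512 and 559 CPM in TG 1, 2 and 3 and 286, 153 and 233 CPM in DRG 1, 2 and 3 (log2 fold change 1.18 ± 0.29 (SE), adjusted p = 0.0288). Calls were lost for Maf without TG 2 or DRG 1 (adjusted p up to 0.058), and for Slc17a7 without TG 2, TG 3, DRG 1 or DRG 3 (adjusted p up to 0.107). Ntrk2 and Ntrk3, receptors that mark down-hair and slowly adapting or muscle afferents, stood at log2 fold changes of −1.204 (adjusted p = 0.0387, edgeR) and 0.41 (adjusted p = 0.299; with GC offsets 1.34, adjusted p = 0.0241). The call for Ntrk2 was lost without TG 2, TG 3, DRG 1 or DRG 3 (adjusted p up to 0.153) and with GC offsets (−0.82, adjusted p = 0.0886). The 4 calls in TG became 0 without TG 2, 2 without TG 3, 1 without DRG 1 and 2 without DRG 3, and the 6 in DRG became 3 without TG 2, 3 without DRG 1 and 3 without DRG 3. Without both TG 1 and DRG 2 they became 6 and 13, beside 6026 and 5598 of all 18908 genes in that fit. With GC offsets 2 of 27 passed as higher in TG and 7 as higher in DRG; Maf passed (1.95, adjusted p = 0.00459) and Slc17a7 did not (0.47, adjusted p = 0.268).

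Among 11 proprioceptor genes 1 was higher in TG and 3 higher in DRG (9.09% and 27.3%, beside 9.39% and 12.4% of all genes), with a median of −0.73. Etv1, the factor that muscle afferents need to reach the spinal cord, stood at 12.8, 6.01 and 7.60 CPM in TG 1, 2 and 3 and 92.4, 55.5 and 143 CPM in DRG 1, 2 and 3 (log2 fold change −3.47 ± 0.47 (SE), adjusted p = 0.00848), without overlap and in each fit that left out 1 library. Pvalb, the calcium buffer of muscle afferents, did not pass, at 65.8, 104 and 39.1 CPM in TG 1, 2 and 3 and 92.9, 152 and 101 CPM in DRG 1, 2 and 3 (log2 fold change −0.73 ± 0.39 (SE), adjusted p = 0.208), and Runx3, a factor of the same neurons, had a log2 fold change of 0.49 (adjusted p = 0.344, edgeR). Whrn, a scaffold protein of proprioceptors and hair cells, stood at 139.6, 139 and 138 CPM in TG 1, 2 and 3 and 67.9, 51.2 and 71.1 CPM in DRG 1, 2 and 3 (log2 fold change 1.13 ± 0.25 (SE), adjusted p = 0.0199), but with GC offsets at −0.15, adjusted p = 0.745; its call was lost without TG 2, TG 3, DRG 1 or DRG 3 (adjusted p up to 0.092). The 3 calls in DRG became 1 without TG 2, 1 without TG 3, 1 without DRG 1 and 1 without DRG 3, the 1 in TG became 0 without TG 2, 0 without TG 3, 0 without DRG 1 and 0 without DRG 3, and with GC offsets 2 of 11 passed, both higher in DRG. Of 10 genes of unmyelinated touch fibres 1 passed as higher in DRG (10%, beside 12.4% of all genes), with a median of −0.73. It was P2ry1, a receptor for nucleotides (log2 fold change −2.26 ± 0.68 (SE), adjusted p = 0.0492), and it was lost without TG 2, TG 3, DRG 1 or DRG 3 (adjusted p up to 0.163) and with GC offsets (−1.24, adjusted p = 0.199), where 1 of 9 members passed, as higher in TG. Th, the dopamine-synthesis enzyme that marks these fibres in mice and also sympathetic neurons, stood at 411, 456 and 371 CPM in TG 1, 2 and 3 and 165, 324 and 275 CPM in DRG 1, 2 and 3 (log2 fold change 0.70 ± 0.30 (SE), adjusted p = 0.13).

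Voltage-gated sodium channels drive the action potential. Of 18 tested members, channel subunits and their FGF regulators together, 14 were higher in DRG (77.8%, beside 12.4% of all genes) and 1 was higher in TG, with a median of −2.62. In 15 every DRG library lay above every TG library (21.9% of all genes did). Scn10a, the tetrodotoxin-resistant channel Nav1.8 of nociceptors, stood at 72.0, 22.4 and 28.8 CPM in TG 1, 2 and 3 and 665, 347 and 595 CPM in DRG 1, 2 and 3 (log2 fold change −3.71 ± 0.52 (SE), adjusted p = 0.00849). Scn3a, a channel of developing and injured neurons, stood at 6.06, 4.73 and 7.94 CPM in TG 1, 2 and 3 and 47.7, 59.5 and 58.0 CPM in DRG 1, 2 and 3 (log2 fold change −3.14 ± 0.33 (SE), adjusted p = 0.00755). Neither these nor Fgf13, an intracellular regulator of sodium channels, nor the leak channel Nalcn overlapped between the ganglia. Fgf13 had a log2 fold change of −2.69 (adjusted p = 0.00778, edgeR) and Nalcn of −2.77 (adjusted p = 0.00848), and all 4 passed in each fit that left out 1 library, as did Scn11a. Scn9a, the channel Nav1.7 whose loss removes pain in people, stood at 69.3, 13.8 and 13.8 CPM in TG 1, 2 and 3 and 189, 234 and 289 CPM in DRG 1, 2 and 3 (log2 fold change −2.89 ± 0.67 (SE), adjusted p = 0.0235). TG 1 lay between the rest of TG and DRG. Its call was lost without TG 2, TG 3, DRG 1 or DRG 3 (adjusted p up to 0.0785). Scn1a, a channel of large fast neurons, did not pass (log2 fold change −1.39 ± 0.55 (SE), adjusted p = 0.102), and TG 1 lay with DRG, at 107, 31.0 and 27.8 CPM in TG and 107, 135 and 192 CPM in DRG. The 14 calls became 6 without TG 2, 7 without TG 3, 9 without DRG 1 and 8 without DRG 3. Without both TG 1 and DRG 2 they became 15, beside 5598 of all 18908 genes in that fit. With GC offsets 12 of 17 members passed, all higher in DRG.

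Calcium channel genes were higher in DRG about as often as all genes: 3 of 25 were higher in DRG (12%, beside 12.4% of all genes), 22 did not pass, and the median log2 fold change was 0.15. Cacna1c, the L-type pore, stood at 24.4, 17.3 and 19.9 CPM in TG 1, 2 and 3 and 71.9, 68.1 and 62.9 CPM in DRG 1, 2 and 3 (log2 fold change −1.72 ± 0.27 (SE), adjusted p = 0.0102). Cacna2d1, the subunit bound by gabapentin, stood at 27.1, 5.74 and 5.55 CPM in TG 1, 2 and 3 and 109, 105 and 222 CPM in DRG 1, 2 and 3 (log2 fold change −3.52 ± 0.71 (SE), adjusted p = 0.0167). Both had every DRG library above every TG library. The N-type pore Cacna1b stood at −0.82 (adjusted p = 0.0502, edgeR), and passed as higher in DRG with GC offsets (−1.15, adjusted p = 0.0204), with DESeq2 and limma-voom (adjusted p = 0.0271 and 0.0348) and without DRG 2 (adjusted p = 0.0181). The P/Q-type pore Cacna1a, in which the ganglia overlapped, stood at 0.16 (adjusted p = 0.686). Calls were lost without TG 2 for Cacna1c (adjusted p = 0.0603) and without TG 2, TG 3, DRG 1 or DRG 3 for Cacna2d1 (adjusted p up to 0.0642). The 3 calls became 0 without TG 2, 1 without TG 3, 1 without DRG 1, 6 without DRG 2 and 1 without DRG 3. With GC offsets 5 of 25 passed, all higher in DRG, and the median was −0.40.

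TRP channels detect heat, cold and chemicals. Of 26 tested, 9 were higher in DRG (34.6%, beside 12.4% of all genes) and 2 higher in TG (7.69%, beside 9.39%), with a median of −0.99. Beside Trpa1 and Trpv1, Trpc4 and Trpc7, cation channels gated through receptors coupled to G proteins, did not overlap. Trpc4 stood at 2.70, 1.64 and 1.54 CPM in TG 1, 2 and 3 and 17.3, 29.0 and 23.2 CPM in DRG 1, 2 and 3 (log2 fold change −3.58 ± 0.43 (SE), adjusted p = 0.00771). Trpc7 stood at 6.20, 5.64 and 6.15 CPM in TG 1, 2 and 3 and 36.3, 24.9 and 28.7 CPM in DRG 1, 2 and 3 (log2 fold change −2.32 ± 0.32 (SE), adjusted p = 0.00848). Trpm8, the receptor for cold and menthol, stood at 8.49, 14.9 and 16.7 CPM in TG 1, 2 and 3 and 51.4, 32.8 and 49.9 CPM in DRG 1, 2 and 3 (log2 fold change −1.74 ± 0.36 (SE), adjusted p = 0.0182). Trpm3, a heat channel, stood at 6.60, 4.82 and 3.42 CPM in TG 1, 2 and 3 and 15.8, 25.4 and 25.3 CPM in DRG 1, 2 and 3 (log2 fold change −2.17 ± 0.40 (SE), adjusted p = 0.014). Trpc4, Trpc7, Trpa1 and Trpv1 passed in each fit that left out 1 library, and calls were lost for Trpm8 without TG 2, TG 3, DRG 1 or DRG 3 (adjusted p up to 0.0726), and for Trpm3 without TG 2, TG 3 or DRG 3 (adjusted p up to 0.0669). The channels higher in TG were Mcoln1, of lysosomes, with 89.5 to 128 CPM in TG and 41.4 to 52.1 CPM in DRG (log2 fold change 1.25 ± 0.26 (SE), adjusted p = 0.0181), and Trpm4, a calcium-activated cation channel, with 80.1 to 122 CPM in TG and 47.3 to 58.4 CPM in DRG (log2 fold change 0.92 ± 0.27 (SE), adjusted p = 0.0452). These calls were lost for Mcoln1 without TG 2, TG 3, DRG 1 or DRG 3 (adjusted p up to 0.0935), and for Trpm4 without TG 2, TG 3, DRG 1, DRG 2 or DRG 3 (adjusted p up to 0.19), the latter also with GC offsets (0.19, adjusted p = 0.569). Trpv2, a channel of large neurons in rodents, stood at 185, 183 and 168 CPM in TG and 129, 82.6 and 84.5 CPM in DRG (log2 fold change 0.86 ± 0.27 (SE), adjusted p = 0.0533). The 9 calls became 4 without TG 2, 4 without TG 3 and 5 without DRG 3, the 2 became 0 without TG 2, 0 without TG 3, 0 without DRG 1, 1 without DRG 2 and 0 without DRG 3, and with GC offsets 9 of 26 passed as higher in DRG and 1 as higher in TG.

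**Figure D4:**
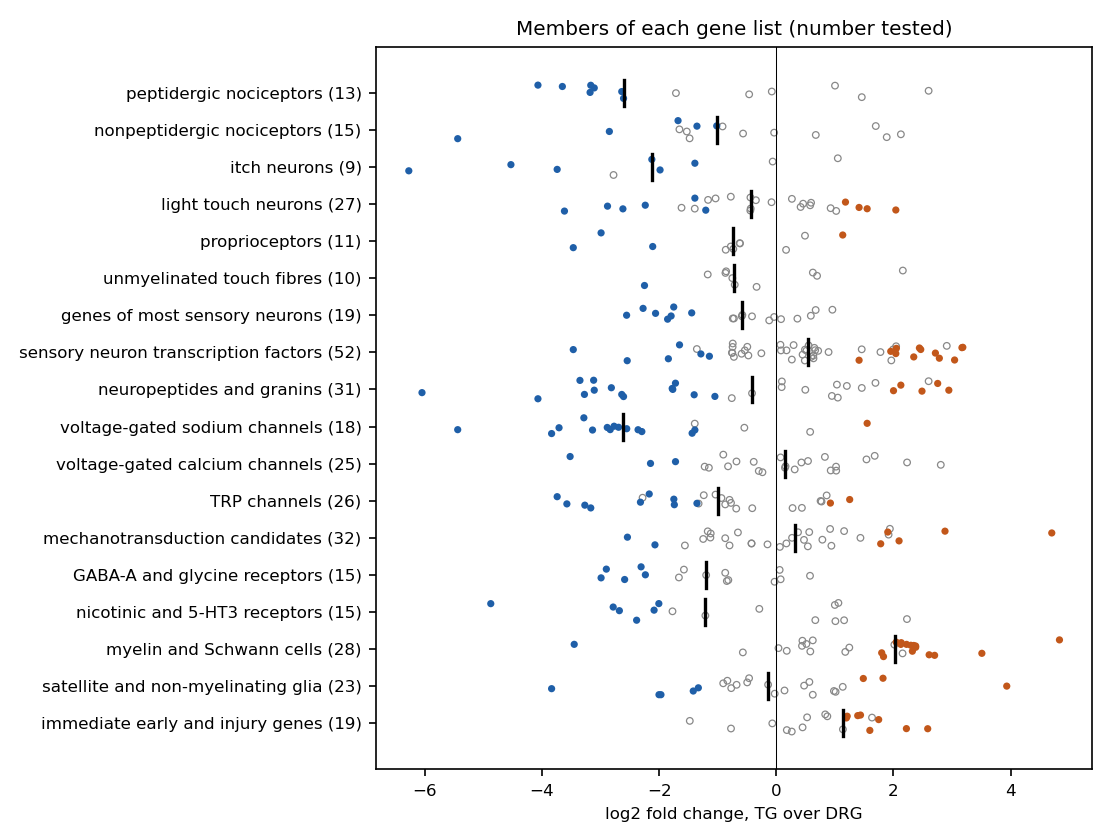
Log2 fold change of TG over DRG (x axis) of the tested members of 18 gene lists (y axis, number tested in brackets), filled and coloured where past the threshold and open where not, with a black bar at the list's median. The medians of the peptidergic nociceptor, itch and sodium channel lists lie below −2, that of the myelin list at 2.03, and light touch genes lie on both sides of 0.

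Of 32 candidate genes of mechanotransduction, the conversion of force into current, 5 were higher in TG (15.6%, beside 9.39% of all genes), 2 higher in DRG (6.25%, beside 12.4%) and 25 did not pass, with a median of 0.32. Accn3 (now Asic3), a proton-gated channel of sensory neurons studied in touch and muscle pain, stood at 1182, 864 and 821 CPM in TG 1, 2 and 3 and 221, 257 and 193 CPM in DRG 1, 2 and 3 (log2 fold change 2.10 ± 0.27 (SE), adjusted p = 0.00778). Fam38a (now Piezo1), a force-gated channel, stood at 291, 230.2 and 196 CPM in TG 1, 2 and 3 and 53.3, 64.9 and 73.5 CPM in DRG 1, 2 and 3 (log2 fold change 1.90 ± 0.27 (SE), adjusted p = 0.00851). In both the lowest TG library was more than 2 times the highest DRG library, and both passed in each fit that left out 1 library. For Fam38a the study cites earlier work on mouse kidney, lung and skin. It also detected Fam38a in mouse TG and DRG, with levels in TG comparable to kidney. The study's qPCR in the mole gave higher Fam38a in TG, but that difference was not significant. Fam38b (now Piezo2), the force-gated channel of touch neurons, did not pass, at 246, 59.99 and 62.0 CPM in TG 1, 2 and 3 and 211, 348 and 268 CPM in DRG 1, 2 and 3 (log2 fold change −1.17 ± 0.57 (SE), adjusted p = 0.166). TG 1 lay with DRG, while TG 2 and TG 3 were below all DRG libraries; in the TruSeq libraries alone fam38b was called higher in DRG (log2 fold change −2.34, adjusted p = 0.029, edgeR), and in replicate 1 the log2 ratio was 0.22. None of the 3 had a GC value under its listed name. Tmem63a, a member of a family of channels opened by osmotic stretch, stood at 27.2, 33.0 and 54.1 CPM in TG 1, 2 and 3 and 9.75, 12.2 and 11.3 CPM in DRG 1, 2 and 3 (log2 fold change 1.78 ± 0.35 (SE), adjusted p = 0.0162), and its relative Tmem63c at 48.0, 27.8 and 34.5 CPM in TG 1, 2 and 3 and 240.2, 79.1 and 144 CPM in DRG 1, 2 and 3 (log2 fold change −2.07 ± 0.44 (SE), adjusted p = 0.0189). They moved in opposite directions. Tmem150c, an accessory protein of slowly adapting currents, had 1.75 to 6.41 CPM in TG and 9.45 to 28.0 CPM in DRG (log2 fold change −2.54 ± 0.64 (SE), adjusted p = 0.0294). Calls were lost for Tmem63a without TG 2, TG 3, DRG 1 or DRG 3 (adjusted p up to 0.069), for Tmem63c without TG 2, TG 3, DRG 1 or DRG 3 (adjusted p up to 0.0822), and for Tmem150c without TG 2, DRG 1 or DRG 3 (adjusted p up to 0.107). The 5 calls became 8 without TG 1, 2 without TG 2, 2 without TG 3, 2 without DRG 1 and 2 without DRG 3, and the 2 became 4 without TG 1, 0 without TG 2, 1 without TG 3, 0 without DRG 1, 6 without DRG 2 and 0 without DRG 3. With GC offsets 5 of 26 passed in each direction, and the median of these 26 was −0.14.

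Of 14 acid-sensing, epithelial sodium and ATP-gated P2X channels 2 were higher in TG and 1 higher in DRG (14.3% and 7.14%, beside 9.39% and 12.4% of all genes), with a median of −0.04. Accn1 (now Asic2) stood at 40.2, 46.2 and 43.6 CPM in TG and 35.04, 13.4 and 20.4 CPM in DRG (log2 fold change 0.92 ± 0.38 (SE), adjusted p = 0.117) and Accn2 (now Asic1) at 171, 107 and 127 CPM in TG and 385, 135 and 185 CPM in DRG (log2 fold change −0.80 ± 0.42 (SE), adjusted p = 0.195); neither passed. P2rx5, an ATP-gated channel of large neurons, was higher in DRG (log2 fold change −1.41 ± 0.36 (SE), adjusted p = 0.0318), and its call was lost without TG 2, TG 3, DRG 1 or DRG 3 (adjusted p up to 0.118). Scnn1b, a subunit of the epithelial sodium channel, was higher in TG at 4.18, 8.56 and 4.01 CPM in TG 1, 2 and 3 and 0.965, 0.487 and 0.800 CPM in DRG 1, 2 and 3 (log2 fold change 2.88 ± 0.59 (SE), adjusted p = 0.0171). Its call was lost without the same libraries (adjusted p up to 0.0914). With GC offsets 1 of 10 members passed as higher in TG and 2 as higher in DRG.

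The cyclic nucleotide-gated channels are best known for turning odour and light signals into current, and stomatins modulate channels in the membrane. Cnga2, the main olfactory subunit, stood at 11.1, 45.8 and 37.2 CPM in TG 1, 2 and 3 and 0.869, 2.53 and 0.725 CPM in DRG 1, 2 and 3 (log2 fold change 4.57 ± 0.74 (SE), adjusted p = 0.011), and every TG library was above every DRG library. Cnga4, its partner subunit, stood at 1.75, 9.19 and 5.30 CPM in TG 1, 2 and 3 and 0, 0.682 and 0.0757 CPM in DRG 1, 2 and 3 (log2 fold change 4.62 ± 1.23 (SE), adjusted p = 0.0353). Cnga3, the cone subunit, stood at 5.53, 16.8 and 12.3 CPM in TG 1, 2 and 3 and 0.869, 3.70 and 0.292 CPM in DRG 1, 2 and 3 (log2 fold change 2.89 ± 0.93 (SE), adjusted p = 0.0591). Within TG all 3 were lowest in TG 1, and within DRG all 3 were highest in DRG 2. Stoml3, a stomatin needed by part of the touch neurons in mice and also made in olfactory neurons, stood at 11.9, 56.1 and 42.3 CPM in TG 1, 2 and 3 and 0.483, 3.51 and 0.487 CPM in DRG 1, 2 and 3 (log2 fold change 4.70 ± 0.98 (SE), adjusted p = 0.0179), again lowest of TG in TG 1 and highest of DRG in DRG 2. Stom, the founding stomatin, stood at 10.8, 56.0 and 44.5 CPM in TG 1, 2 and 3 and 8.11, 5.95 and 14.8 CPM in DRG 1, 2 and 3 (log2 fold change 1.94 ± 0.63 (SE), adjusted p = 0.0599) and DRG 3 lay above TG 1; with GC offsets it passed as higher in TG (2.38, adjusted p = 0.0305). Without DRG 1 the call of Cnga2 was lost (adjusted p = 0.054), and calls were lost for Cnga4 without TG 2, TG 3, DRG 1 or DRG 3 (adjusted p up to 0.122), and for Stoml3 without TG 2, TG 3, DRG 1 or DRG 3 (adjusted p up to 0.0719).

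Genes of olfactory and other nasal tissue moved with these channels. Omp, the marker of mature olfactory neurons, stood at 14.96, 111 and 84.0 CPM in TG 1, 2 and 3 and 1.45, 3.996 and 1.30 CPM in DRG 1, 2 and 3 (log2 fold change 5.005 ± 0.85 (SE), adjusted p = 0.0118). Cyp2g1, an enzyme of the olfactory mucosa, stood at 69.9, 271 and 155 CPM in TG 1, 2 and 3 and 1.06, 15.2 and 0.725 CPM in DRG 1, 2 and 3 (log2 fold change 4.91 ± 1.23 (SE), adjusted p = 0.0296). In both, TG 1 was the lowest TG library and DRG 2 the highest DRG library, as for Cnga2. TG 1 and DRG 2 also lay between the other libraries on the first principal component over all genes tested. Whether this order is particular to nasal genes was not tested. For a list of 10 genes of olfactory neurons put together after their values were seen, 9 passed as higher in TG and 1 did not, and their summed level was 157 to 439.8 CPM in TG and 22.0 to 53.1 CPM in DRG. It holds Lhx2 and S100a5, a factor and a calcium-binding protein of olfactory neurons, with 17.9 to 40.8 CPM in TG and 1.54 to 3.80 CPM in DRG, and with 24.1 to 58.4 CPM in TG and 0.290 to 6.63 CPM in DRG, as well as Cnga2, Cnga4 and Stoml3 themselves. For 12 genes of nasal mucosa and glands, chosen likewise, all 12 passed and the summed level was 911 to 2635 CPM in TG and 15.7 to 74.2 CPM in DRG. Among them were Cyp2f2, with 108 to 240.1 CPM in TG and 4.73 to 11.6 CPM in DRG, and the odorant-binding protein gene listed as rya3, with 372 to 980.2 CPM in TG and 2.20 to 15.9 CPM in DRG. Of all genes tested 9.39% were higher in TG. Since both lists were chosen with the values known, their counts, also in other fits, are no independent evidence. Other genes of the odour cascade did not pass: Gnal and Adcy3, its G protein and cyclase, which other cells also use, overlapped between the ganglia, with log2 fold changes of −0.48 (adjusted p = 0.443, edgeR) and −0.82 (adjusted p = 0.138). With GC offsets Adcy3 passed as higher in DRG (−1.59, adjusted p = 0.0166), as it did with the replicate block added to them (adjusted p = 0.0198) and without both TG 1 and DRG 2 (adjusted p = 0.0178). Of 15 olfactory transduction genes 5 were higher in TG and 2, Ncam2 and Pde1c, higher in DRG (33.3% and 13.3%, beside 9.39% and 12.4% of all genes), with a median of 1.04. The 5 became 2 without TG 2, 2 without TG 3, 0 without DRG 1 and 1 without DRG 3, the 9 became 3 without TG 2, 4 without TG 3, 1 without DRG 1 and 2 without DRG 3, and the 12 became 6 without TG 2, 7 without TG 3, 5 without DRG 1 and 5 without DRG 3. With GC offsets 4 of 15 olfactory transduction genes passed as higher in TG and 2 as higher in DRG, and 8 of 10 olfactory neuron genes and 9 of 10 genes of nasal mucosa with a GC value passed as higher in TG. The part of nasal tissue in the levels of the channels and Stoml3 was not tested.

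**Figure D5:**
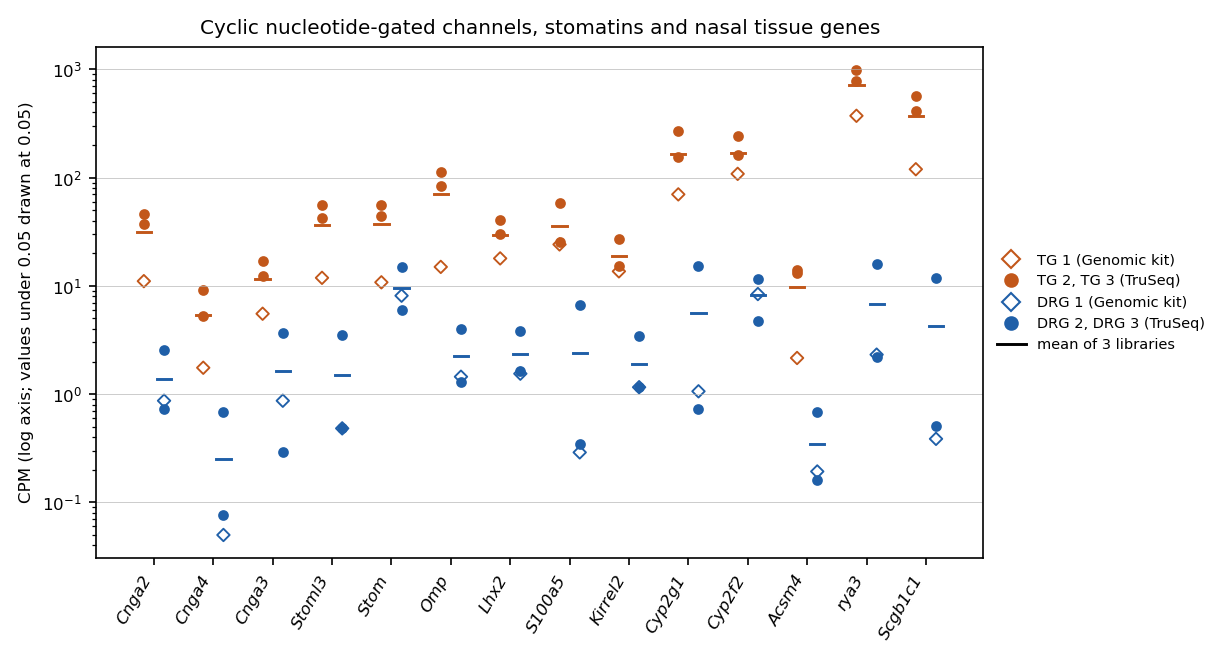
CPM (y axis, log scale, values under 0.05 drawn at 0.05) of cyclic nucleotide-gated channel and stomatin genes and of 9 genes of olfactory neurons and nasal mucosa in each library, with open diamonds for replicate 1, filled circles for replicates 2 and 3 and bars for the mean of 3 libraries. TG 1 is the lowest TG library and DRG 2 the highest DRG library for Cnga2, Cnga4, Cnga3 and Stoml3 as for Omp and Cyp2g1, while Stom overlaps between the ganglia. TG 1 and DRG 2 also lie between the other libraries on the first principal component over all genes tested.

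HCN channels set the rhythm of firing after hyperpolarization. Hcn3 stood at 12.8, 14.02 and 19.0 CPM in TG 1, 2 and 3 and 72.7, 52.5 and 58.3 CPM in DRG 1, 2 and 3 (log2 fold change −1.998 ± 0.30 (SE), adjusted p = 0.00933). Hcn2, which inflammatory pain depends on in mice, had 52.2 to 78.0 CPM in TG and 84.1 to 118 CPM in DRG (log2 fold change −0.60 ± 0.28 (SE), adjusted p = 0.149), and passed as higher in DRG with GC offsets (−2.05, adjusted p = 0.00888). Both had every DRG library above every TG library. The call was lost for Hcn3 without TG 2 (adjusted p up to 0.0542). Over the whole list of 9 channels, 2 passed in each direction (22.2% and 22.2%, beside 9.39% and 12.4% of all genes), with a median of 0.64, and with GC offsets 2 were higher in TG and 3 higher in DRG. The 2 in TG became 4 without TG 1, 1 without TG 2, 1 without TG 3, 0 without DRG 1, 4 without DRG 2 and 1 without DRG 3, and the 2 in DRG became 0 without TG 2, 1 without TG 3, 1 without DRG 1 and 1 without DRG 3.

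Receptors for inhibitory transmitters were lower in TG or did not pass. Of 15 tested subunits of GABA-A and glycine receptors 5 were higher in DRG (33.3%, beside 12.4% of all genes) and 10 did not pass, with a median of −1.198. Glrb, the β subunit of the glycine receptor, stood at 5.39, 5.46 and 5.21 CPM in TG 1, 2 and 3 and 43.1, 27.0 and 49.9 CPM in DRG 1, 2 and 3 (log2 fold change −2.90 ± 0.35 (SE), adjusted p = 0.00771) and passed in each fit that left out 1 library. Gabra5, a subunit of extrasynaptic receptors, stood at 4.99, 4.82 and 7.60 CPM in TG 1, 2 and 3 and 33.2, 17.5 and 35.6 CPM in DRG 1, 2 and 3 (log2 fold change −2.31 ± 0.41 (SE), adjusted p = 0.0128), and the call was lost without TG 2, DRG 1 or DRG 3 (adjusted p up to 0.0638). The 5 calls became 8 without TG 1, 1 without TG 2, 2 without TG 3, 1 without DRG 1 and 3 without DRG 3, and 5 also passed with GC offsets, where the list's median was −0.46. Of 15 nicotinic and 5-HT3 receptor subunits 6 were higher in DRG (40%, beside 12.4% of all genes) and 9 did not pass, with a median of −1.21. Chrna7, the subunit of a calcium-permeable nicotinic receptor, stood at 14.2, 18.4 and 19.0 CPM in TG 1, 2 and 3 and 47.3, 112 and 59.5 CPM in DRG 1, 2 and 3 (log2 fold change −2.09 ± 0.39 (SE), adjusted p = 0.0139) without overlap. The call was lost without TG 2 or TG 3 (adjusted p up to 0.063) and with GC offsets (−1.26, adjusted p = 0.0879). The 6 calls became 0 without TG 2, 1 without TG 3, 1 without DRG 1 and 1 without DRG 3, and 6 also passed with GC offsets, where the list's median was −0.44.

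Of 17 ionotropic glutamate receptor genes 1 was higher in TG and 2 higher in DRG (5.88% and 11.8%, beside 9.39% and 12.4% of all genes), with a median of 0.25. Grin3b, a modulatory NMDA receptor subunit, stood at 24.7, 29.1 and 44.2 CPM in TG 1, 2 and 3 and 5.50, 3.70 and 5.57 CPM in DRG 1, 2 and 3 (log2 fold change 2.72 ± 0.38 (SE), adjusted p = 0.00848) and passed in each fit that left out 1 library, and with GC offsets at less of a difference (1.37, adjusted p = 0.0322). Grin1, the subunit that all NMDA receptors hold, overlapped between the ganglia (log2 fold change 0.46 ± 0.26 (SE), adjusted p = 0.234). Among 27 chloride channels and transporters 2 were higher in TG and 5 higher in DRG (7.41% and 18.5%, beside 9.39% and 12.4% of all genes), with a median of 0.26. Ano3, a TMEM16 protein found in nociceptors, stood at 4.31, 2.37 and 1.196 CPM in TG 1, 2 and 3 and 40.2, 45.1 and 80.3 CPM in DRG 1, 2 and 3 (log2 fold change −4.42 ± 0.56 (SE), adjusted p = 0.00778), with no overlap and in each fit that left out 1 library. Slc12a2, the chloride importer of sensory neurons, did not pass, at 25.2, 15.1 and 15.03 CPM in TG and 32.0, 29.8 and 99.8 CPM in DRG (log2 fold change −1.55 ± 0.53 (SE), adjusted p = 0.0686). The 5 chloride calls in DRG became 1 without TG 2, 2 without TG 3, 2 without DRG 1, 10 without DRG 2 and 2 without DRG 3, and the 2 in TG became 0 without TG 2, 0 without TG 3, 0 without DRG 1, 4 without DRG 2 and 0 without DRG 3. The 2 glutamate calls in DRG became 4 without TG 1, 0 without TG 2, 1 without TG 3, 0 without DRG 1, 4 without DRG 2 and 1 without DRG 3. With GC offsets 6 of 27 chloride genes passed, all higher in DRG, and 1 and 2 glutamate receptor genes.

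Potassium channel genes are among those that the study's text or primers name; that list was drawn up by the study on these samples, so its counts are no independent evidence. Of its 37 genes 35 were tested, 12 were higher in TG and 18 higher in DRG (34.3% and 51.4%, beside 9.39% and 12.4% of all genes), with a median of −1.74. Kcnj4, an inward rectifier, stood at 31.0, 37.6 and 65.2 CPM in TG 1, 2 and 3 and 3.38, 4.48 and 2.64 CPM in DRG 1, 2 and 3 (log2 fold change 3.69 ± 0.43 (SE), adjusted p = 0.00771). Kcnmb2, a β subunit of calcium-activated channels, stood at 1.21, 0.182 and 0.256 CPM in TG 1, 2 and 3 and 13.6, 21.1 and 24.4 CPM in DRG 1, 2 and 3 (log2 fold change −5.25 ± 0.74 (SE), adjusted p = 0.00849). Kcnv1, a silent subunit, stood at 0.404, 0.182 and 0.512 CPM in TG 1, 2 and 3 and 6.47, 4.87 and 6.80 CPM in DRG 1, 2 and 3 (log2 fold change −4.03 ± 0.60 (SE), adjusted p = 0.00915). Pirt, a membrane protein that binds Trpv1 and Trpm8, stood at 2.43, 2.55 and 2.99 CPM in TG 1, 2 and 3 and 65.4, 32.4 and 64.9 CPM in DRG 1, 2 and 3 (log2 fold change −4.35 ± 0.40 (SE), adjusted p = 0.00587). None of these 4 overlapped between the ganglia, and all passed in each fit that left out 1 library. Hoxd1, a homeobox gene of nociceptors, was higher in DRG at 14.7, 8.83 and 10.6 CPM in TG 1, 2 and 3 and 52.0, 34.4 and 63.6 CPM in DRG 1, 2 and 3 (log2 fold change −2.14 ± 0.36 (SE), adjusted p = 0.0117); the call was lost without TG 2, TG 3 or DRG 1 (adjusted p up to 0.0605). Kcnh4, Kcnh3 and Kcnq1 were higher in TG by log2 fold changes of 3.82, 2.72 and 3.46 and lost their calls without TG 2, TG 3, DRG 1 or DRG 3, with adjusted p up to 0.0856, 0.102 and 0.133, and Kcnh3 also with GC offsets (1.65, adjusted p = 0.0521). Further members higher in DRG were Scn7a, a sodium channel relative linked to salt sensing, Kcnt2, a sodium-activated potassium channel, and Trpc1, a cation channel, with log2 fold changes of −3.84, −3.72 and −3.27. Chrna6, a nicotinic subunit, had 2 counts over the TG libraries together, and its pooled level in DRG was 37.0 (95% exact interval 10.1 to 307, counting error only) times that in TG. Calls were lost for Kcnt2 without TG 2 or DRG 3 (adjusted p up to 0.0568), for Trpc1 without TG 2 or TG 3 (adjusted p up to 0.0638), for Scn7a without TG 2 or TG 3 (adjusted p up to 0.0566), and for Chrna6 without TG 2, DRG 1 or DRG 3 (adjusted p up to 0.0886). Kcne1l and Cacng8, auxiliary subunits of potassium and calcium channels, did not pass (3.21, adjusted p = 0.0645, and 2.81, adjusted p = 0.0598, edgeR), and Chrna9 and Catsper1 had too few counts to test. The 12 calls became 6 without TG 2, 6 without TG 3, 5 without DRG 1 and 6 without DRG 3, and the 18 became 10 without TG 2. With GC offsets 10 of 32 passed as higher in TG and 18 as higher in DRG.

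Of 31 neuropeptides and proteins that pack and cut them 14 were higher in DRG (45.2%, beside 12.4% of all genes) and 5 higher in TG (16.1%, beside 9.39%), with a median of −0.41. Scg2 and Pam, a granin of peptide vesicles and the enzyme that amidates peptides, differed evenly. Scg2 stood at 32.3, 32.2 and 36.1 CPM in TG 1, 2 and 3 and 346, 328 and 302 CPM in DRG 1, 2 and 3 (log2 fold change −3.28 ± 0.24 (SE), adjusted p = 0.00423). Pam stood at 33.8, 38.9 and 39.0 CPM in TG 1, 2 and 3 and 305, 311 and 354 CPM in DRG 1, 2 and 3 (log2 fold change −3.12 ± 0.24 (SE), adjusted p = 0.00443). The granin-like Scg3 had 101 to 171 CPM in TG and 327 to 577 CPM in DRG and the processing enzyme Pcsk1 11.1 to 16.0 CPM in TG and 28.7 to 57.3 CPM in DRG. Nmu, neuromedin U, a peptide of sensory and gut neurons, stood at 0.404, 0.637 and 0.939 CPM in TG 1, 2 and 3 and 17.1, 89.2 and 29.4 CPM in DRG 1, 2 and 3 (log2 fold change −6.05 ± 0.78 (SE), adjusted p = 0.00778). Crh, the corticotropin releasing hormone, stood at 1.21, 1.55 and 1.71 CPM in TG 1, 2 and 3 and 11.2, 9.36 and 25.3 CPM in DRG 1, 2 and 3 (log2 fold change −3.35 ± 0.53 (SE), adjusted p = 0.0103). Scg2, Pam and Nmu passed in each fit that left out 1 library; calls were lost for Crh without TG 2 (adjusted p up to 0.0514), for Scg3 without TG 2, TG 3 or DRG 3 (adjusted p up to 0.0742), and for Pcsk1 without TG 2, TG 3, DRG 1 or DRG 3 (adjusted p up to 0.079). Chga and Vgf, further vesicle proteins, did not pass, with log2 fold changes of 0.50 (adjusted p = 0.19, edgeR) and 0.09 (adjusted p = 0.808; with GC offsets −1.23, adjusted p = 0.0348). Qpct, the enzyme that closes the end of some peptides into a ring and a gene outside the list, stood at 2.70, 4.19 and 5.30 CPM in TG 1, 2 and 3 and 83.3, 128 and 120.3 CPM in DRG 1, 2 and 3 (log2 fold change −4.75 ± 0.38 (SE), adjusted p = 0.00443). Pcsk1n, Npy and Vip were higher in TG. Pcsk1n, an inhibitor of the processing enzyme, stood at 1117, 857 and 749 CPM in TG 1, 2 and 3 and 138, 255 and 288 CPM in DRG 1, 2 and 3 (log2 fold change 2.001 ± 0.35 (SE), adjusted p = 0.0122). Npy, a peptide of sympathetic and injured sensory neurons, stood at 182, 36.0 and 36.3 CPM in TG and 15.1, 16.8 and 13.5 CPM in DRG (log2 fold change 2.49 ± 0.66 (SE), adjusted p = 0.0344). Vip, a peptide of parasympathetic neurons, stood at 1.75, 10.7 and 9.05 CPM in TG and 1.45, 0.487 and 1.21 CPM in DRG (log2 fold change 2.76 ± 0.77 (SE), adjusted p = 0.0405). Within TG, TG 1 was the highest library for Npy and the lowest for Vip. Calls were lost for Pcsk1n without TG 2 (adjusted p up to 0.0528), for Npy without TG 2, DRG 1 or DRG 3 (adjusted p up to 0.123), and for Vip without TG 2, TG 3, DRG 1, DRG 2 or DRG 3 (adjusted p up to 0.142); those of Npy and Pcsk1 were also lost with GC offsets (2.16, adjusted p = 0.0575, and −0.73, adjusted p = 0.095). The 14 calls became 5 without TG 2, 6 without TG 3, 7 without DRG 1 and 7 without DRG 3, and the 5 became 0 without TG 2, 2 without TG 3, 1 without DRG 1, 9 without DRG 2 and 1 without DRG 3. With GC offsets 13 of 31 passed as higher in DRG and 2 as higher in TG.

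Of 88 tested receptors coupled to G proteins 18 were higher in DRG (20.5%, beside 12.4% of all genes), 5 higher in TG (5.68%, beside 9.39%) and 65 did not pass, with a median of −0.03. Cnr1, the cannabinoid receptor of neurons, stood at 2.83, 1.82 and 1.37 CPM in TG 1, 2 and 3 and 18.2, 13.1 and 30.9 CPM in DRG 1, 2 and 3 (log2 fold change −3.39 ± 0.50 (SE), adjusted p = 0.00906). Oprk1, the κ opioid receptor, stood at 0.270, 1.37 and 1.11 CPM in TG 1, 2 and 3 and 8.49, 15.9 and 16.5 CPM in DRG 1, 2 and 3 (log2 fold change −3.85 ± 0.63 (SE), adjusted p = 0.011). Oprm1, the μ opioid receptor, stood at 1.08, 4.73 and 2.99 CPM in TG 1, 2 and 3 and 11.8, 34.4 and 10.6 CPM in DRG 1, 2 and 3 (log2 fold change −2.67 ± 0.68 (SE), adjusted p = 0.0316). All 3 were higher in all DRG libraries. Gabbr2, a subunit of the GABA-B receptor, had 71.9 to 98.7 CPM in TG and 182 to 471 CPM in DRG (log2 fold change −1.88 ± 0.37 (SE), adjusted p = 0.0164), and its partner Gabbr1 had 152 to 183 CPM in TG and 192 to 489.8 CPM in DRG (log2 fold change −0.95 ± 0.36 (SE), adjusted p = 0.0902; with GC offsets −1.27, adjusted p = 0.0317). Adora2a and Mc1r were higher in TG. Adora2a, an adenosine receptor of brain and immune cells, stood at 13.2, 29.1 and 26.8 CPM in TG 1, 2 and 3 and 2.61, 3.22 and 3.09 CPM in DRG 1, 2 and 3 (log2 fold change 2.95 ± 0.42 (SE), adjusted p = 0.00851). Mc1r, the melanocortin receptor of pigment cells, stood at 38.8, 25.6 and 23.4 CPM in TG 1, 2 and 3 and 4.63, 2.63 and 6.29 CPM in DRG 1, 2 and 3 (log2 fold change 2.68 ± 0.44 (SE), adjusted p = 0.011). Adora2a, Cnr1 and Oprk1 passed in each fit that left out 1 library, and calls were lost for Oprm1 without TG 2, TG 3, DRG 1, DRG 2 or DRG 3 (adjusted p up to 0.0929), for Gabbr2 without TG 2, TG 3, DRG 1 or DRG 3 (adjusted p up to 0.0775), and for Mc1r without DRG 1 (adjusted p up to 0.0522); that of Oprm1 was also lost with GC offsets (−2.22, adjusted p = 0.0592). The 18 calls became 2 without TG 2, 5 without TG 3, 4 without DRG 1 and 4 without DRG 3, and the 5 became 10 without TG 1, 2 without TG 2, 2 without TG 3, 1 without DRG 1, 10 without DRG 2 and 2 without DRG 3. With GC offsets 14 of 88 passed as higher in DRG and 6 as higher in TG.

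Among 52 transcription factors of sensory neurons 12 were higher in TG (23.1%, beside 9.39% of all genes) and 6 higher in DRG (11.5%, beside 12.4%), with a median of 0.53. Beside Etv1, Klf5 and Klf7 were higher in DRG. Klf5 stood at 5.80, 5.55 and 5.98 CPM in TG 1, 2 and 3 and 29.4, 26.6 and 45.0 CPM in DRG 1, 2 and 3 (log2 fold change −2.55 ± 0.34 (SE), adjusted p = 0.00848). Klf7, a factor that nociceptors need, stood at 27.9, 16.2 and 16.5 CPM in TG 1, 2 and 3 and 71.9, 61.1 and 83.9 CPM in DRG 1, 2 and 3 (log2 fold change −1.84 ± 0.32 (SE), adjusted p = 0.0127). Neither overlapped. Factors found throughout somatosensory neurons or their main classes did not pass: Pou4f1 stood at 176, 73.3 and 73.7 CPM in TG and 209.7, 113 and 218 CPM in DRG (log2 fold change −0.74 ± 0.43 (SE), adjusted p = 0.241) and Tlx3 at 191, 199 and 188 CPM in TG and 87.5, 158 and 119 CPM in DRG (log2 fold change 0.66 ± 0.28 (SE), adjusted p = 0.121; with GC offsets −0.92, adjusted p = 0.0347). Runx1, the factor of nonpeptidergic nociceptors, stood at 61.7, 38.6 and 28.0 CPM in TG and 43.1, 32.0 and 46.2 CPM in DRG (log2 fold change 0.08 ± 0.35 (SE), adjusted p = 0.884). The 12 factors higher in TG included the following 5. Hand2, of sympathetic neurons, stood at 3.50, 14.8 and 14.9 CPM in TG 1, 2 and 3 and 0.579, 1.36 and 1.63 CPM in DRG 1, 2 and 3 (log2 fold change 3.18 ± 0.70 (SE), adjusted p = 0.0205). Gata3, of sympathetic and inner ear neurons, stood at 21.2, 16.8 and 14.8 CPM in TG 1, 2 and 3 and 0.869, 4.78 and 2.39 CPM in DRG 1, 2 and 3 (log2 fold change 2.72 ± 0.60 (SE), adjusted p = 0.021). In both, no library of TG lay as low as any of DRG. Otx2, of head and forebrain, Hmx1, of cranial ganglia, and Neurod1, of developing cranial sensory neurons, had log2 fold changes of 3.17, 1.95 and 2.35. The calls of Klf7, Hand2, Gata3, Otx2, Hmx1 and Neurod1 were lost without TG 2, TG 3, DRG 1 or DRG 3, with adjusted p up to 0.0655, 0.079, 0.0864, 0.15, 0.13 and 0.112, and that of Hmx1 also with GC offsets (0.30, adjusted p = 0.635). The 12 calls became 0 without TG 2, 1 without TG 3, 0 without DRG 1, 19 without DRG 2 and 1 without DRG 3, the 6 became 2 without TG 2, 2 without TG 3, 2 without DRG 1 and 2 without DRG 3, and with GC offsets 10 passed as higher in TG and 9 as higher in DRG.

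Most of the myelin genes tested were higher in TG. Of 28, 15 were higher in TG (53.6%, beside 9.39% of all genes), 1 higher in DRG and 12 did not pass, with a median of 2.03, and 18 had every TG library above every DRG library (21.1% of all genes did). The list's summed level was 11680.4 to 13331 CPM in TG and 2244 to 4399 CPM in DRG. Prx, a scaffold of the Schwann cell membrane, stood at 1519, 1536 and 1786 CPM in TG 1, 2 and 3 and 349, 195 and 249 CPM in DRG 1, 2 and 3 (log2 fold change 2.61 ± 0.30 (SE), adjusted p = 0.00771). Mbp, which compacts myelin, stood at 972, 897 and 1120.2 CPM in TG 1, 2 and 3 and 63.0, 84.0 and 115 CPM in DRG 1, 2 and 3 (log2 fold change 3.51 ± 0.32 (SE), adjusted p = 0.00587). Mag, the protein that holds myelin to the axon, stood at 369, 225 and 400.1 CPM in TG 1, 2 and 3 and 12.5, 12.1 and 10.4 CPM in DRG 1, 2 and 3 (log2 fold change 4.83 ± 0.34 (SE), adjusted p = 0.00423). In none of these did the ganglia overlap. The gap junction protein Gjb1, the morphogen Dhh and the membrane protein Pllp, all of myelinating Schwann cells, had log2 fold changes of 2.32, 2.35 and 2.70, and Sox10, the factor of all Schwann and satellite cells, of 2.13 (adjusted p = 0.00848, 0.00848, 0.00778 and 0.00906, edgeR). Pmp22, a main protein of peripheral myelin, overlapped at 1063, 669.9 and 847 CPM in TG 1, 2 and 3 and 976, 635 and 903 CPM in DRG 1, 2 and 3 (log2 fold change 0.04 ± 0.29 (SE), adjusted p = 0.936). Tspan2, a tetraspanin of myelinating glia and also of some neurons, was higher in DRG at 3.64, 3.28 and 2.39 CPM in TG 1, 2 and 3 and 17.7, 20.7 and 62.8 CPM in DRG 1, 2 and 3 (log2 fold change −3.45 ± 0.58 (SE), adjusted p = 0.0117); its call was lost without TG 2 (adjusted p = 0.0545). Prx, Mbp, Mag, Gjb1, Dhh, Pllp and Sox10 passed in each fit that left out 1 library. The list held 11 to 17 calls in TG with 1 library left out. Without both TG 1 and DRG 2 it held 19, beside 6026 of all 18908 genes in that fit. With GC offsets 15 of 28 passed as higher in TG and 1 as higher in DRG, with Mag at 4.07, adjusted p = 0.00149 and Sox10 no longer past the threshold (0.97, adjusted p = 0.0973).

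Of 16 tested genes of the central nervous system 8 were higher in TG and 1 higher in DRG (50% and 6.25%, beside 9.39% and 12.4% of all genes), with a median of 2.39, and their summed level was 319.7 to 786 CPM in TG and 66.7 to 109.7 CPM in DRG. Olig1, a factor of oligodendrocytes, the myelin-forming cells of the brain, stood at 36.5, 17.4 and 38.8 CPM in TG 1, 2 and 3 and 1.83, 2.83 and 1.73 CPM in DRG 1, 2 and 3 (log2 fold change 3.87 ± 0.46 (SE), adjusted p = 0.00771). Mobp, a protein of central myelin, stood at 232, 39.4 and 83.7 CPM in TG 1, 2 and 3 and 12.5, 10.6 and 5.50 CPM in DRG 1, 2 and 3 (log2 fold change 3.64 ± 0.69 (SE), adjusted p = 0.0146). Gfap, the filament of astrocytes and of satellite and non-myelinating Schwann cells, stood at 349, 144 and 394 CPM in TG 1, 2 and 3 and 19.7, 29.2 and 9.42 CPM in DRG 1, 2 and 3 (log2 fold change 3.93 ± 0.56 (SE), adjusted p = 0.00849). All 3 had every TG library above every DRG library, and TG 2 was the lowest of TG, as it was for Mag and Mbp. Over the whole list, 8 of 16 genes had every TG library above every DRG library (21.1% of all genes did). Gad2, the GABA-synthesis enzyme of brain neurons, did not pass, at 0.943, 4.28 and 5.30 CPM in TG and 0.386, 1.36 and 0.260 CPM in DRG (log2 fold change 2.46 ± 0.91 (SE), adjusted p = 0.088). Mag and Mbp are made by both oligodendrocytes and Schwann cells, whereas Prx and Dhh belong to Schwann cells, as background; the part of central tissue in the levels of Mag, Mbp and Gfap was not tested. Olig1 and Gfap passed in each fit that left out 1 library, and Mobp was lost without DRG 1 or DRG 3 (adjusted p up to 0.0617). The 8 calls became 5 without TG 2, 5 without TG 3, 3 without DRG 1 and 3 without DRG 3, and with GC offsets 7 of 16 passed, all higher in TG.

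Of 23 genes of satellite and non-myelinating glia 3 were higher in TG and 5 higher in DRG (13% and 21.7%, beside 9.39% and 12.4% of all genes), with a median of −0.14. Apoe, the lipid carrier of satellite cells and macrophages, stood at 6709, 7598 and 7272 CPM in TG 1, 2 and 3 and 2223, 2055 and 1827 CPM in DRG 1, 2 and 3 (log2 fold change 1.82 ± 0.24 (SE), adjusted p = 0.00796) and passed in each fit that left out 1 library, but with GC offsets the difference was smaller (0.88, adjusted p = 0.0255). Fabp7, a fatty acid carrier of satellite cells, overlapped at 173, 80.7 and 74.5 CPM in TG and 224, 195 and 140.0 CPM in DRG (log2 fold change −0.77 ± 0.39 (SE), adjusted p = 0.179). Sox2, a factor of satellite cells, was higher in TG (log2 fold change 1.49 ± 0.33 (SE), adjusted p = 0.0207), and Ncam1, an adhesion protein of non-myelinating Schwann cells and neurons, was higher in DRG (log2 fold change −1.42 ± 0.34 (SE), adjusted p = 0.0261). Both calls were lost without TG 2, TG 3, DRG 1 or DRG 3, with adjusted p up to 0.0794 and 0.108. The 5 calls in DRG became 8 without TG 1, 0 without TG 2, 0 without TG 3, 1 without DRG 1 and 1 without DRG 3, and with GC offsets 4 of 23 were higher in TG and 3 higher in DRG.

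Immediate early and injury genes are induced by activity and nerve damage. Of 19 tested 8 were higher in TG (42.1%, beside 9.39% of all genes) and 11 did not pass, with a median of 1.14. Jun stood at 220.1, 265 and 359.9 CPM in TG 1, 2 and 3 and 126, 68.8 and 84.6 CPM in DRG 1, 2 and 3 (log2 fold change 1.597 ± 0.33 (SE), adjusted p = 0.0171). Atf3, a marker of injured sensory neurons, stood at 37.6, 7.01 and 14.6 CPM in TG 1, 2 and 3 and 2.12, 4.39 and 3.32 CPM in DRG 1, 2 and 3 (log2 fold change 2.58 ± 0.65 (SE), adjusted p = 0.0303). Fos overlapped between the ganglia, at 11.99, 17.2 and 24.3 CPM in TG and 20.5, 15.3 and 20.4 CPM in DRG (log2 fold change −0.07 ± 0.36 (SE), adjusted p = 0.903). The calls were lost for Jun without TG 2, TG 3 or DRG 3 (adjusted p up to 0.073), and for Atf3 without TG 3, DRG 1 or DRG 3 (adjusted p up to 0.111). The 8 became 1 without TG 2, 0 without TG 3, 1 without DRG 1 and 0 without DRG 3, and with GC offsets 5 passed as higher in TG and 1 as higher in DRG. The list's median log2 fold change with GC offsets was 0.17.

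Markers of other tissues also differed. Of 20 skeletal muscle genes 10 were higher in TG (50%, beside 9.39% of all genes), with a median of 1.96, and their summed level was 1842 to 4627 CPM in TG and 708 to 1248 CPM in DRG. Of 16 macrophage and immune genes 5 were higher in TG (31.2%, beside 9.39% of all genes), with a median of 1.03. They included C1qa and C1qc, parts of the first complement component made by macrophages, with C1qa at 74.9, 52.7 and 80.02 CPM in TG 1, 2 and 3 and 8.69, 16.4 and 15.6 CPM in DRG 1, 2 and 3 (log2 fold change 2.35 ± 0.35 (SE), adjusted p = 0.00934), and both passed in each fit that left out 1 library. Of 14 keratinocyte genes 5 were higher in TG (35.7%, beside 9.39% of all genes), with a median of 3.76 and a summed level of 92.0 to 1192 CPM in TG and 80.1 to 132 CPM in DRG, the highest in TG 1. TG 2 and TG 3 stood at 106 and 92.0 CPM, within the range of DRG. In the TruSeq libraries alone 0 of the 14 keratinocyte genes passed, with a median of 1.13, and without TG 1 the median was 1.44. Of 12 neutrophil and marrow genes 8 were higher in DRG (66.7%, beside 12.4% of all genes), with a median of −4.09 and a summed level of 219 to 254 CPM in TG and 158 to 1419 CPM in DRG, the lowest in DRG 2. Endothelium had 2 of 12 higher in TG (16.7%, beside 9.39% of all genes) and 1 higher in DRG (8.33%, beside 12.4%), with a median of 0.46. Fibroblasts and meninges had 1 of 16 in each direction (6.25%, beside 9.39% and 12.4%), with a median of −0.21. Red cells, adipocytes and pituitary had 0 of 11, 0 of 9 and 0 of 5 in either direction by edgeR at the adjusted threshold, beside 1, 2 and 2 at an unadjusted p under 0.05, 0, 1 and 1 by DESeq2 and 1, 0 and 2 by limma-voom. The muscle calls became 1 without TG 2, 6 without TG 3, 1 without DRG 1 and 1 without DRG 3, the macrophage calls 3 without TG 2, 2 without DRG 1 and 2 without DRG 3, the keratinocyte calls 3 without TG 1, 1 without TG 2, 3 without TG 3, 0 without DRG 1 and 0 without DRG 3, and the neutrophil calls 1 without TG 2, 1 without TG 3, 1 without DRG 1 and 1 without DRG 3. The endothelial calls in TG became 0 without TG 2, 0 without TG 3, 0 without DRG 1 and 0 without DRG 3. With GC offsets 8 muscle, 4 immune and 4 keratinocyte genes were higher in TG and 8 neutrophil genes higher in DRG. With the same offsets 1 endothelial gene was higher in TG and 2 higher in DRG, 1 fibroblast gene was higher in each direction, and of red cell, adipocyte and pituitary genes 0, 1 and 1 passed, each higher in TG.

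Of the genes past the threshold both with all 6 libraries and in the TruSeq libraries alone, in the same direction, at 5 CPM or more and without overlap, 763 were higher in TG and 1305 higher in DRG. Those with the largest fold changes are named here, 15 in each direction, and 12 of these 30 lost their call in at least 1 of the fits that left out 1 library. In TG they were Apoa1, Slpi, Lce1c, Hpd, rya3, Lce1b, Scgb1c1, Car6, D6Ertd527e, Klk1, Matn3, loc653486, plunc, klk2 and Lypd2, with log2 fold changes from 5.47 to 6.93. Matn3, a cartilage matrix protein, was uneven within TG, at 0.943, 91.9 and 17.9 CPM in TG and 0.386, 0.195 and 0.703 CPM in DRG (log2 fold change 6.24 ± 1.47 (SE), adjusted p = 0.0247), and passed in 2 of these 6 fits (adjusted p up to 0.0969), as did Scgb1c1, klk2, S100a8, S100a9 and s100a12. Lypd2 was even, at 19.3, 29.9 and 20.2 CPM in TG and 0.193, 1.27 and 0.249 CPM in DRG (log2 fold change 5.47 ± 0.77 (SE), adjusted p = 0.00848). In DRG the 15 were Hoxa9, Camp, S100a9, Il31ra, s100a12, Nmu, Hoxa5, S100a8, Scn11a, Kcnmb2, Sh3bgrl2, Qpct, Arhgap28, loc488248 and gsbs. Hoxa9, a gene of the trunk axis, stood at 0.135, 0.0910 and 0.0854 CPM in TG 1, 2 and 3 and 36.5, 25.7 and 38.7 CPM in DRG 1, 2 and 3 (adjusted p = 0.003, edgeR). It had 3 counts over the TG libraries together, and its pooled level in DRG was 372 (95% exact interval 127 to 1807, counting error only) times that in TG. Sh3bgrl2, a small thioredoxin-like protein, stood at 10.6, 3.37 and 5.98 CPM in TG 1, 2 and 3 and 168, 63.1 and 371 CPM in DRG 1, 2 and 3 (log2 fold change −4.92 ± 0.75 (SE), adjusted p = 0.00982), and passed in each fit that left out 1 library, as did Hoxa9 and Lypd2 and 18 of the 30 in all. Pairs of close relatives in these lists, such as Lce1b with Lce1c, Klk1 with klk2 and the S100 genes, can share reads, so the split between them is uncertain.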

How the data were processed

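Poly-A RNA was sequenced as single reads from 3 TG and 3 DRG samples of adult male star-nosed moles. Per the labels and the study's methods, the authors aligned the reads with Stampy to transcripts of human, passed what was left to those of dog and after that of mouse, and summed each gene's hits over its homologs in these 3 organisms, and the labels name DESeq for normalization. The deposited table holds raw counts of reads per gene. No mole genome was used and the files give no coordinates, so genes with close relatives may share reads. Kits and lengths differed (Genomic, 76 bases, for replicate 1; TruSeq, shorter reads, for replicates 2 and 3), and which TruSeq library had which length was not stated. The mouse libraries and the authors' lists of calls, which hold fold changes and p-values, were not used here.

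Counts as deposited were read in R 4.3.3. Genes with at least 10 counts in at least 3 of the 6 libraries were scaled with TMM factors and tested with edgeR 4.0.16 (quasi-likelihood test, 2-sided, no block), with Benjamini-Hochberg adjustment over all 18908 genes and a threshold of 0.05. CPM values use the same factors. SE is the absolute log2 fold change over the square root of F. DESeq2 1.42.0 and limma 3.58.1 served as alternatives, together with other filters, thinning, a kit covariate, a replicate block, subsets of libraries and GC offsets. The offsets were loess fits (span 0.3) of each library's log2 CPM on the GC content of mouse transcripts, available for 74.6% of the genes tested. Depth was 8409670, 10389036 and 11140894 counts in TG 1, 2 and 3 and 10950277, 9706906 and 92323879 in DRG 1, 2 and 3.

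The comparison, its members and all gene lists were chosen with earlier results of these data known. Named genes were the 15 with the largest fold changes in each direction among genes past the threshold in both fits (at least 5 CPM in the higher ganglion, no overlap), those the study's text or primers name, and from each list up to 6 past the threshold with the smallest adjusted p and up to 3 others with the highest level. The named members therefore do not stand for the other calls of their lists. Other list members named in the text, such as Npy, Scn9a and Gad2, and the lists of olfactory neurons and nasal mucosa were chosen after their values were seen. Lists are described by their counts, with no set test, and most also by their medians and the shares over all genes tested. No sequences are shown because none for the mole were used here. The values of some list members are not reported here; they stay in the list counts.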

Additional observations from a re-analysis of the deposited data

How the results depend on the processing

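With 1 library left out, the genes higher in TG numbered 202 to 3334 and those higher in DRG 206 to 3574, beside 1775 and 2342 with all 6. Genes higher in TG numbered 914 in the TruSeq libraries alone, 3159 with limma-voom and 6026 without both TG 1 and DRG 2, and genes higher in DRG 5598 in the last. With GC offsets on the genes with a GC value, the counts were 977 and 1549, and with offsets and a replicate block 1027 and 1464. Counts stayed within 1.5 times of the main ones with the kit as a covariate (1726 and 2303), DESeq2 (2656 and 3328), RLE factors (1717 and 2325), no filter (1323 and 2618), filterByExpr (1899 and 2341), libraries thinned to the smallest (1693 and 2175) and the genes with a GC value without offsets (2035 and 2422). The share of calls higher in TG was 43.1% with all 6 libraries and these filters, 33.6% with no filter and 50.9% with limma-voom.

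The replicate block gave 1557 genes higher in TG and 2041 higher in DRG. The correlations of deviations from the ganglion means were 0.379, 0.479 and −0.159 for same-numbered TG and DRG libraries, and TG 3 correlated best with DRG 2 (0.285), so the numbers were not taken to pair the samples.

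Of the 141 named genes past the threshold, 72 kept their call without TG 2, 87 without TG 3, 78 without DRG 1, 80 without DRG 3, 139 without TG 1 and 138 without DRG 2. Of all 4117 calls, 408 were kept without TG 2, 794 without TG 3, 682 without DRG 1 and 745 without DRG 3. Many named genes were picked for a small adjusted p or a large fold change, so they do not stand for all calls. All 141 named genes kept their call with DESeq2 and RLE factors. They also did without both TG 1 and DRG 2, which were left out because they lay between the ganglia. That fit kept 4114 of all 4117 calls, so it is no check on the named genes. With GC offsets 117 of 132 kept it. Those that lost it with offsets were Chrna7, Hmx1, Kcnh3, Ncam2, Npy, Ntrk2, Oprm1, P2ry1, Pcsk1, S1pr1, Slc17a7, Snap25, Sox10, Trpm4 and Whrn. In the TruSeq libraries alone 118 kept it, and among the lost were Cnga4, Cyp2g1, Trpm8 and Hrh1; under the replicate block 134 kept it, and Atf3, Gfra2, Hrh1, Ntrk2, P2rx5, Trpm4 and Vip lost it. With offsets log2 fold changes turned for Cacna1a −0.70, Chga −0.34, Fabp7 0.0448, Grin1 −0.49, Runx3 −0.18, Stmn2 0.42, Tlx3 −0.92, Tubb3 −0.12, Vgf −1.23 and Whrn −0.15; of these Whrn alone had passed without offsets, and Tlx3 and Vgf passed with them as higher in DRG. With the block in that fit the values were Cacna1a −0.67, Chga −0.33, Fabp7 0.0880, Grin1 −0.50, Runx3 −0.19, Stmn2 0.49, Tlx3 −0.91, Tubb3 −0.0929, Vgf −1.25 and Whrn −0.11. The cause was not tested. Other genes that had not passed changed sign: Fos 0.22, Pmp22 −0.0197, Prph 0.14, Runx1 −0.23 and Vgf −0.0757 in the TruSeq libraries; Fos 0.00800 and Prph 0.0231 on the genes with a GC value; Runx1 −0.0368 with limma-voom; Pmp22 −0.12, Runx1 −0.0839 and Vgf −0.0596 with no filter; and Fos 0.0367, Pmp22 −0.30, Prph 0.30, Runx1 −0.41 and Vgf −0.14 without both TG 1 and DRG 2. With 1 library left out such genes ranged over Fos −0.36 to 0.15, Pmp22 −0.16 to 0.19, Prph −0.25 to 0.13, Runx1 −0.28 to 0.31, Sncg −0.39 to 0.0706, Vgf −0.0897 to 0.18.

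Depth limits low genes most, since all libraries other than DRG 3 hold 8409670 to 11140894 counts. With libraries thinned to the smallest, 137 of the 141 named calls were kept. The TruSeq calls at an adjusted p under 0.01 numbered 0 by edgeR (7110 genes had an unadjusted p under 0.05, and the smallest adjusted p was 0.029), so the check in replicate 1 had no value there. The planned GC corrections were not run as planned because 74.6% of the genes tested had a GC value, under the 80% set for them; the offsets above cover those genes only and were chosen after seeing the data.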
